A study of Arabidopsis thaliana with 4 samples.

Results

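The glycolysis genes of germinating Arabidopsis thaliana seedlings were described across all 4 samples of the series. Members were the features whose deposited Gene Ontology annotation holds the exact biological process term glycolysis, without 7 plastid loci of the Calvin cycle that carry or resemble that annotation. Of 23932 features, 43 held the term, 4 of them were among the 7 Calvin cycle loci, and the remaining 39 were the members. All 39 passed the filter on low values, which kept 22646 features with at least 1 RPKM in both columns of at least 1 sample. The samples were whole seedlings of a line with raised expression of ZFP3, a zinc finger protein gene (ZFP3ox), and of the Columbia wild type (WT, Col-0). ZFP3ox with ABA and WT with ABA were germinated with 5 µM estradiol and 2.5 µM abscisic acid (ABA) and harvested at 84 h, while ZFP3ox control and WT control were germinated with 5 µM estradiol alone and harvested at 36 h. All 4 groups therefore shared estradiol, the usual inducer of the XVE expression system, and ABA and hours on the plate cannot be told apart. The labels do not name the promoter that drives ZFP3 or say how many transgenic lines were used, and each group was 1 sample.

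Glycolysis splits glucose into pyruvate and yields ATP and NADH. Plants run it in the cytosol and, in part, in plastids, where pyruvate feeds fatty acid synthesis in seeds. Plants also hold a pyrophosphate-dependent phosphofructokinase beside the ATP-dependent enzyme. In a germinating Arabidopsis seed, sugar made from stored oil enters the pathway until the seedling turns green. ABA is the hormone that holds back germination.

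Values were RPKM, reads per kilobase of gene model scaled to library size, which compares levels between genes per length. The deposited table holds a pair of columns for each sample, called column set 1 and column set 2 here, and no source used here says how the sets differ. A sample with its pair of columns counted as 1 replicate. Ratios are log2(RPKM + 1) differences within a column set, and the ratio of a comparison is the mean over both sets, with the set 1 and set 2 values given as its spread. With 1 sample per group there was no replicate check and no p-value for such a ratio. The steps between low values placed the depth of column set 1 at about 2.64 Mreads (M, mega) in ZFP3ox with ABA, 3.01 in ZFP3ox control, 3.2 in WT with ABA and 4.1 in WT control. The depth of column set 2 is unknown. The 5th percentile of all features lay at 3.4 to 7.31 RPKM in set 1 but at 0.42 to 0.6 RPKM in set 2, and what this floor did to the ratios of weakly expressed genes was not tested. ZFP3 was higher in ZFP3ox than in WT by 2.37 (set 1) and 4.51 (set 2) log2 units with ABA and by 4.19 and 4.29 without it. RAB18, an ABA-induced dehydrin gene, was higher with ABA by 4.34 and 2.27 log2 units in ZFP3ox and by 5.40 and 5.26 in WT.

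Several members are near copies of each other, and their sequences are shown first because they limit what a value of a single gene means. Per the authors' deposited settings, a read was used with up to 2 mismatches and up to 10 matching places. Every 50-base window of each member's longest RefSeq transcript was compared with the longest transcript of every other gene of the TAIR10.1 assembly. Up to 2 mismatched bases were allowed. The authors matched in colour space, which this comparison of bases does not copy, so the shares are not those of the authors' matching. No window was shared for 17 members and some were shared for 22, and the share reached 10% for 3 of them. These 3 were pyruvate kinases: AT3G55650 shared 93.1% of its windows, AT3G55810 shared 88.4% and AT3G25960 shared 34%. With no mismatch allowed, the shares were 42.7%, 41.8% and 3.1% in that order. AT3G55650 and AT3G55810 were each other's main partner, with an identical stretch of 168 bases, and 60 bases of their coding sequences read the same in both.
AT3G55650: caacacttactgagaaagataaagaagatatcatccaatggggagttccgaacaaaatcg
AT3G55810: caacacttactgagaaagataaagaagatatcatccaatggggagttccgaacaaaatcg
The window lies at chr3:20647635-20647694 on the plus strand for AT3G55650 and at chr3:20712628-20712687 on the minus strand for AT3G55810 (TAIR10.1). A read from this window matches both genes equally, so its gene of origin cannot be told. The abundant cytosolic pair GAPC1 (AT3G04120) and GAPC2 (AT1G13440) was far more distinct, with 119 shared windows, 7.2% of those of GAPC1 and 6.8% of those of GAPC2. The 60 bases around their longest identical stretch of 53 bases are shown with the mismatches in capitals.
GAPC1: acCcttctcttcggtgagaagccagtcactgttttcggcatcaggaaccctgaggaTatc
GAPC2: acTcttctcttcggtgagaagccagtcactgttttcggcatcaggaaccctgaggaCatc
These coding bases are spliced from chr3:1081841-1081994 (plus strand) and chr1:4609753-4609903 (minus strand). The plastid pair GAPCP-1 and GAPCP-2 shared 6.0% and 7.0% of their windows.

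The members were spread over a wide range of levels. GAPC2, GAPC1, TPI, PGK, PKp3 and AT3G25960 averaged 50 RPKM or more over the 8 columns, 25 members lay between 10 and 50 RPKM, and 8 lay under 10 RPKM. These level limits were chosen after the values were seen. The highest mean level was 282 RPKM for GAPC2 and the lowest 2.51 RPKM for AT3G55650.

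With ABA, the glycolysis genes as a group were somewhat lower than the other genes, in both genotypes. The median ratio of the 39 members was -0.26 in ZFP3ox (set 1 -0.36, set 2 -0.05), against a median of 0.21 over all genes kept. In WT it was -0.22 (set 1 -0.20, set 2 -0.26), against 0.15 over all genes kept. Median-of-ratios scaling brought the median of all genes to 0.02 in ZFP3ox and 0.00 in WT. Relative to all genes, the members' median was -0.47 in ZFP3ox and -0.37 in WT, and stayed between -0.23 and -0.58 in ZFP3ox and between -0.24 and -0.56 in WT over the pseudocount, filter, scaling, column set and member rule settings tried. In ZFP3ox, 19 members were lower with ABA in each column set and 8 were higher, where 17% of all genes were lower and 45.3% higher by that rule. In WT, 17 members were lower and 8 higher, where 18.2% of all genes were lower and 34.8% higher. Together 11 members were lower in both sets of both genotypes (28.2%, against 7.33% of all genes), and 5 were higher in all of these ratios (12.8%, against 19.6%). These shares of all genes were not matched by level, and more abundant genes were more often lower in each set, as given by level below. The 11 were PFK1, AT1G76550, GAPC2, GAPC1, AT1G56190, AT2G36580, AT3G52990, AT5G56350, PDH-E1 ALPHA, AT3G55410 and AT5G58330. The 5 were PFK2, PKp3, AT3G25960, AT3G55810 and AT4G26390. The last 2 lay near the 5th percentile of set 1, itself higher with ABA (5.68 against 3.4 RPKM in WT, 7.31 against 5.04 in ZFP3ox). In set 1 AT3G55810 had 3.81 against 2.31 RPKM in WT and 8.46 against 5.85 in ZFP3ox. AT4G26390 had 7.75 against 3.6 RPKM in WT and 8.12 against 6.01 in ZFP3ox. AT3G55810 also shared 88.4% of its windows with other genes. With median-of-ratios scaling these 11 stayed lower and AT1G18270 and AT1G22170 joined them, while PKp3 and AT3G25960 left the higher ones. That made 13 lower and 3 higher, where the shares of all genes moved the same way, to 12.1% lower and 11.3% higher.

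**Figure D1:**
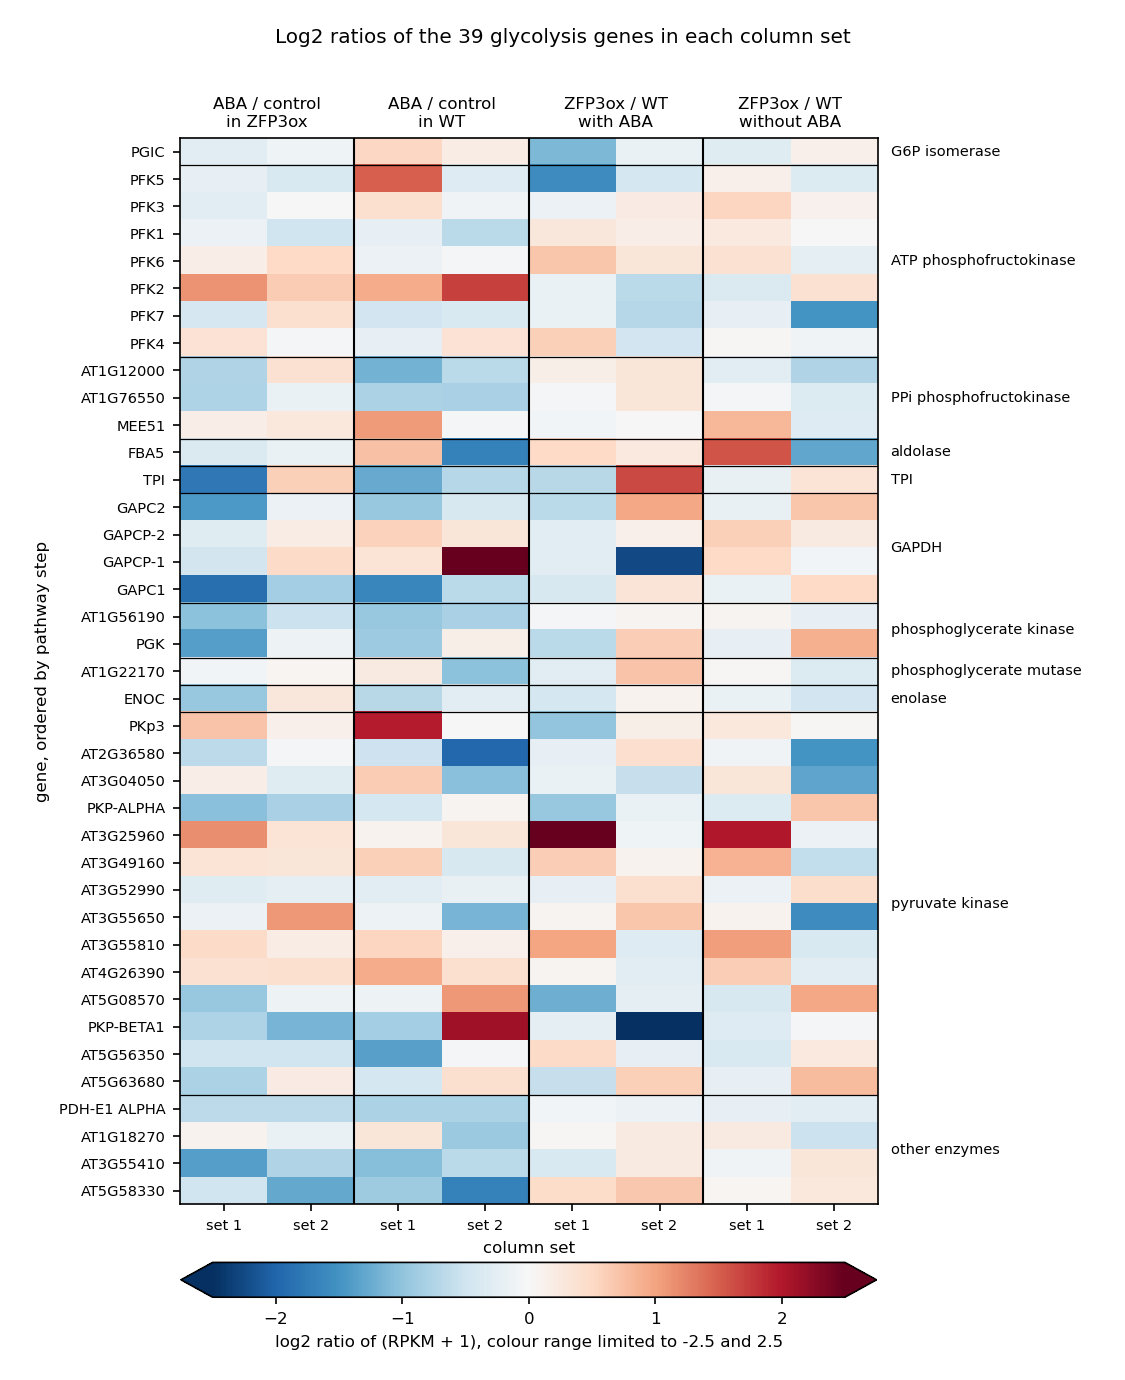
Log2 ratios of (RPKM + 1) for the 39 glycolysis genes (rows, ordered by pathway step) in 4 comparisons (column pairs), each in column set 1 and column set 2. Blue is lower and red is higher in ZFP3ox or with ABA; GAPC1, AT1G56190 and AT3G55410 are blue and PFK2 is red in all 4 ABA columns.

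Single genes rarely reached 2-fold. In ZFP3ox, ABA against control left 0 members at least 2-fold higher and 2 at least 2-fold lower in the mean of both sets, GAPC1 and AT3G55410, where 4.55% of all genes were higher and 2.23% lower by that size. In WT, 2 members were at least 2-fold higher, GAPCP-1 and PFK2, and 3 were at least 2-fold lower, AT5G58330, AT2G36580 and GAPC1, against 4.65% higher and 2.86% lower of all genes. By the stricter rule of 2-fold in each set, 0 members were higher or lower in ZFP3ox (1.02% and 0.729% of all genes) and 0 in WT (1.46% and 1.37%). Median-of-ratios scaling gave 7 lower and 0 higher in ZFP3ox and 7 lower and 2 higher in WT. The corresponding shares of all genes were 4.04% lower and 2.45% higher in ZFP3ox and 4.11% lower and 3.17% higher in WT.

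At the entry of the pathway, PGIC, the cytosolic glucose-6-phosphate isomerase that makes fructose 6-phosphate, had 34.8 RPKM in ZFP3ox with ABA against 42.9 in ZFP3ox control, and 76.9 in WT with ABA against 53.2 in WT control (set 1). In set 2 it had 11.4 against 12.3 in ZFP3ox and 12.8 against 11.2 in WT. PGIC was thus slightly lower with ABA in ZFP3ox and slightly higher in WT, by -0.20 and 0.35 log2 units, in both sets of each.

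ATP phosphofructokinase commits sugar to the pathway, and its 7 genes had median ABA ratios of -0.01 in ZFP3ox and 0.08 in WT. PFK2 (AT5G47810, chr5:19356292-19358125, minus strand) stood apart from the other 6. PFK2 had 20.7 RPKM in ZFP3ox with ABA against 8.89 in ZFP3ox control, and 23.2 in WT with ABA against 11.8 in WT control (set 1). The set 2 values of PFK2 were 4.33 against 2.42 RPKM in ZFP3ox and 7.55 against 1.63 RPKM in WT. Both ABA samples were above both control samples in each set. The PFK2 ratio was 0.89 in ZFP3ox (1.13 and 0.64 in sets 1 and 2) and 1.31 in WT (0.93 and 1.70). The authors' deposited table of genes higher with ABA also lists PFK2, with a signed fold change of 2.06 in ZFP3ox and 3.3 in WT. Among the remaining ATP phosphofructokinases, ratios with ABA ran from -0.32 (PFK1) to 0.33 (PFK6) in ZFP3ox and from -0.43 (PFK1) to 0.59 (PFK5) in WT.

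The plastid gene PFK5, the most abundant of the 7 on average, shows how far 1 column can carry a mean. PFK5 had 21.1 RPKM in ZFP3ox with ABA against 24.5 in ZFP3ox control, and 64.4 in WT with ABA against 22.2 in WT control (set 1). In set 2 it had 4.33 against 6.00 RPKM in ZFP3ox and 6.17 against 7.95 in WT. Its WT ratio was 1.49 in set 1 and -0.32 in set 2.

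Because PFK2 and GAPC1 were the members with the highest and lowest averaged ABA effects, the 300 bases upstream of their annotated starts are shown. The search was for ACGTG on both strands, the core of the ABA-responsive element, with matches in capitals (CACGT is ACGTG on the other strand).
PFK2: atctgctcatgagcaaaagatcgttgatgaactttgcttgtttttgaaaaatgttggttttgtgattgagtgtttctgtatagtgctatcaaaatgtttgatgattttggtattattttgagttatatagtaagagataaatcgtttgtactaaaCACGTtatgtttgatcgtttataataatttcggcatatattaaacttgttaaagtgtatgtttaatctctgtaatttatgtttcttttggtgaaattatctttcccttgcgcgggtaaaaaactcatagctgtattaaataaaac
GAPC1: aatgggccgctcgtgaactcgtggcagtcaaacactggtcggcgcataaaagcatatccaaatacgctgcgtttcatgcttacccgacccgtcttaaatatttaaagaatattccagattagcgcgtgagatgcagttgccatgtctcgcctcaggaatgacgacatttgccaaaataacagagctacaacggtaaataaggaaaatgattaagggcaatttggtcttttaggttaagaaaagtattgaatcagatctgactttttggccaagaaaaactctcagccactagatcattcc
These windows are chr5:19358126-19358425 on the minus strand and chr3:1080642-1080941 on the plus strand (TAIR10.1). ACGTG was found in 11 of 39 members (28.2%) and in 26.0% of 22368 genes. CACGTG, which contains ACGTG, was found in 4 members (10.3%), GAPCP-1, GAPCP-2, ENOC and AT5G08570, and in 7.5% of genes. The members' shares are close to those of all genes.

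Pyrophosphate-dependent phosphofructokinase, which runs the same step reversibly, had 3 genes among the members, and their median ABA ratios were -0.19 in ZFP3ox and -0.81 in WT. AT1G12000, the most abundant of them, had 34.4 RPKM in ZFP3ox with ABA against 58.9 in ZFP3ox control, and 31.0 in WT with ABA against 71.8 in WT control (set 1). AT1G12000 had, in set 2, 11.6 against 8.64 RPKM in ZFP3ox and 9.21 against 15.2 in WT. It was lower with ABA in both sets of WT and in set 1 of ZFP3ox. AT1G76550 was lower in every set, by -0.46 in ZFP3ox and -0.81 in WT, and MEE51 was at 0.22 and 0.51. FBA5, the only classical aldolase gene among the members, was at -0.26 in ZFP3ox and -0.48 in WT. Its 8 columns lay between 2.30 and 19.3 RPKM, and its sets had opposite signs in WT (0.73 and -1.69).

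The cytosolic triose phosphate steps held the most abundant members. TPI, the triose phosphate isomerase, had 109 RPKM in ZFP3ox with ABA against 377 in ZFP3ox control, and 177 in WT with ABA against 427 in WT control (set 1). TPI had, in set 2, 86.0 against 57.0 RPKM in ZFP3ox and 26.8 against 44.5 in WT. TPI was lower with ABA in 3 of 4 ratios and higher in set 2 of ZFP3ox.

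GAPC1 and GAPC2 encode the cytosolic glyceraldehyde-3-phosphate dehydrogenase, the NADH-forming step. GAPC1 had 128 RPKM in ZFP3ox with ABA against 476 in ZFP3ox control, and 169.9 in WT with ABA against 531 in WT control (set 1). The set 2 values of GAPC1 were 73.3 against 131.6 RPKM in ZFP3ox and 58.3 against 93.3 in WT. Both ABA samples lay below both control samples in each set. The GAPC1 ratio was -1.36 in ZFP3ox (-1.88 and -0.84) and -1.15 in WT (-1.64 and -0.67), and it was the 1 member past 2-fold in both genotypes. GAPC2 had 217 RPKM in ZFP3ox with ABA against 591 in ZFP3ox control, and 349 in WT with ABA against 668 in WT control (set 1). In set 2 GAPC2 had 131.8 against 144.9 RPKM in ZFP3ox and 66.8 against 89.1 in WT. Its ratio was -0.79 in ZFP3ox and -0.67 in WT, with the smallest of the differences, -0.14, in set 2 of ZFP3ox.

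GAPCP-1 and GAPCP-2 encode the plastid enzyme of the same step outside photosynthesis. GAPCP-1 had 39.3 RPKM in ZFP3ox with ABA against 54.2 in ZFP3ox control, and 48.2 in WT with ABA against 37.9 in WT control (set 1). The set 2 values of GAPCP-1 were 20.2 against 14.2 RPKM in ZFP3ox and 99.6 against 14.9 in WT. The 2-fold WT ratio of GAPCP-1, 1.5, came from 0.34 in set 1 and 2.66 in set 2. GAPCP-2 was at -0.06 in ZFP3ox and 0.44 in WT.

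**Figure D2:**
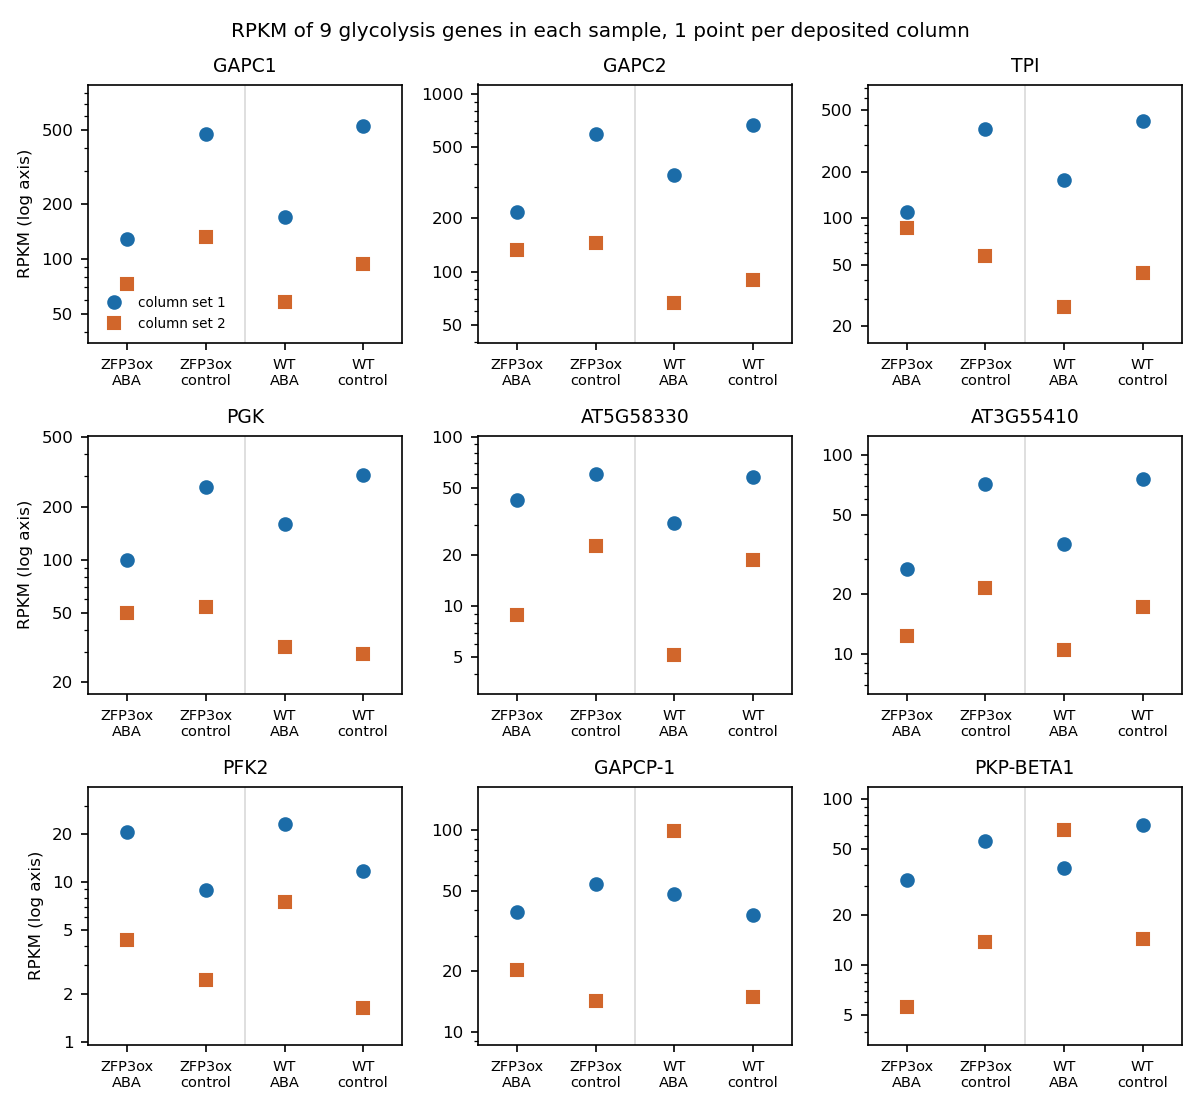
RPKM (log axis) of 9 glycolysis genes in ZFP3ox with ABA, ZFP3ox control, WT with ABA and WT control, with 1 point for each deposited column (circles, column set 1; squares, column set 2). GAPC1 lies lower with ABA and PFK2 higher with ABA in both sets of both genotypes, while GAPCP-1 and PKP-BETA1 each have 1 high point in set 2 of WT with ABA, at 99.6 and 65.7 RPKM.

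Phosphoglycerate kinase makes the first ATP of the lower pathway. PGK, the cytosolic gene, had 99.8 RPKM in ZFP3ox with ABA against 261 in ZFP3ox control, and 161 in WT with ABA against 302 in WT control (set 1). In set 2 PGK had 49.6 against 54.0 RPKM in ZFP3ox and 32.0 against 29.0 in WT. The plastid gene AT1G56190 was lower in every ratio, by -0.79 in ZFP3ox (-1.03 and -0.54) and -0.87 in WT (-0.94 and -0.81). AT1G56190 shares 4.5% of its windows with PGK1, 1 of the Calvin cycle loci set aside. The phosphoglycerate mutase member AT1G22170 lay between 1.2 and 13.0 RPKM, with ratios of -0.02 in ZFP3ox and -0.40 in WT. ENOC, an enolase gene, had 12.8 RPKM in ZFP3ox with ABA against 25.8 in ZFP3ox control, and 17.7 in WT with ABA against 29.1 in WT control (set 1). In set 2 ENOC had 3.93 against 3.05 RPKM in ZFP3ox and 3.68 against 4.62 in WT, so the sets had opposite signs in ZFP3ox.

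Pyruvate kinase, which closes the pathway, had 14 genes, and they had no common direction. Their median ABA ratio was -0.17 in ZFP3ox, with 6 lower and 5 higher in each set, and 0.04 in WT, with 4 lower and 4 higher. AT2G36580, a cytosolic gene, had 27.8 RPKM in ZFP3ox with ABA against 44.3 in ZFP3ox control, and 32.4 in WT with ABA against 46.8 in WT control (set 1). AT2G36580 had, in set 2, 12.7 against 13.2 RPKM in ZFP3ox and 9.21 against 38.7 in WT. Its WT ratio of -1.24 thus joined -0.52 in set 1 with -1.96 in set 2, where WT control alone was high.

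The plastid pyruvate kinase genes feed fatty acid synthesis in the seed. PKP-BETA1 had 32.5 RPKM in ZFP3ox with ABA against 55.9 in ZFP3ox control, and 38.6 in WT with ABA against 70.1 in WT control (set 1). In set 2 PKP-BETA1 had 5.65 against 13.9 RPKM in ZFP3ox and 65.7 against 14.4 in WT. All of its ABA ratios were below 0 except set 2 of WT, at 2.12. PKp3 had 135 RPKM in ZFP3ox with ABA against 81.8 in ZFP3ox control, and 269 in WT with ABA against 68.4 in WT control (set 1). PKp3 had, in set 2, 7.76 against 7.06 RPKM in ZFP3ox and 6.91 against 6.89 in WT, so its WT ratio of 0.98 was all from set 1. PKP-ALPHA was at -0.93 in ZFP3ox and -0.19 in WT.

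The term also covers 4 enzymes beside the classical steps, and 3 of them were lower with ABA in every ratio. AT5G58330 (NADP-dependent malate dehydrogenase of the plastid) had 42.5 RPKM in ZFP3ox with ABA against 59.9 in ZFP3ox control, and 30.9 in WT with ABA against 58.0 in WT control (set 1). AT5G58330 had, in set 2, 8.87 against 22.8 RPKM in ZFP3ox and 5.16 against 18.8 in WT. Its ratio was -0.88 in ZFP3ox and -1.29 in WT, and the authors' deposited table of genes lower with ABA lists it at signed fold changes of -1.82 and -2.48. AT3G55410, an E1 subunit of 2-oxoglutarate dehydrogenase, had 26.8 RPKM in ZFP3ox with ABA against 71.6 in ZFP3ox control, and 35.6 in WT with ABA against 75.7 in WT control (set 1). In set 2 AT3G55410 had 12.3 against 21.5 RPKM in ZFP3ox and 10.4 against 17.1 in WT, and its ratios were -1.07 in ZFP3ox and -0.87 in WT. PDH-E1 ALPHA, a subunit of plastid pyruvate dehydrogenase, was at -0.66 in ZFP3ox (-0.65 and -0.66) and -0.80 in WT (-0.80 and -0.79), nearly the same in both sets. AT1G18270, with an aldolase class II domain, was at -0.04 in ZFP3ox and -0.32 in WT.

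**Figure D3:**
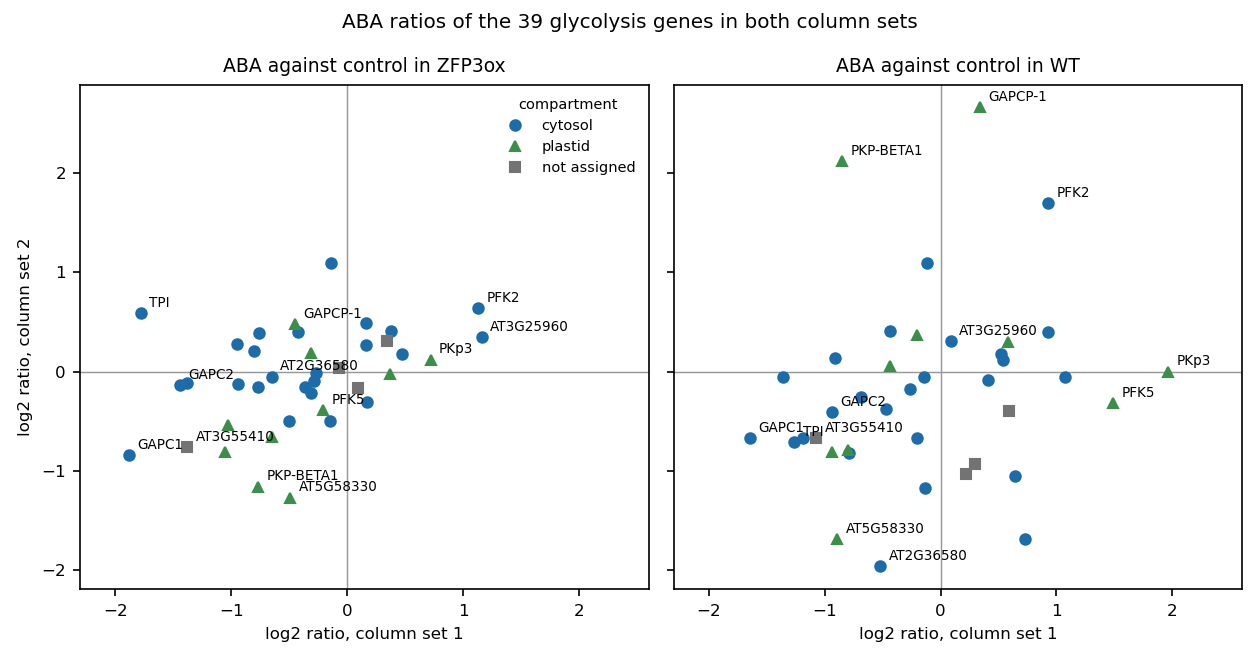
Log2 ratio of ABA against control in column set 1 (x axis) and column set 2 (y axis) for the 39 glycolysis genes in ZFP3ox (left) and WT (right), with points marked by compartment. GAPC1, AT3G55410 and AT5G58330 lie in the lower left and PFK2 in the upper right of both panels; in WT, GAPCP-1 and PKP-BETA1 are above 2 in set 2 alone and PKp3 is near 2 in set 1 alone.

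Summed over all 39 members, glycolysis transcripts were lower with ABA in both column sets, and in set 1 most of the difference lay in 4 genes. The sum was 1716 RPKM in ZFP3ox with ABA against 2975 in ZFP3ox control, and 2071 in WT with ABA against 3128 in WT control (set 1). GAPC1, GAPC2, TPI and PGK made up 554 RPKM in ZFP3ox with ABA against 1704 in ZFP3ox control, and 857 in WT with ABA against 1928 in WT control. The other 35 members summed to 1162 against 1271 RPKM in ZFP3ox and 1214 against 1200 in WT. These sums join genes that were higher and genes that were lower with ABA. PKp3 had 269 against 68.4 RPKM in WT, and AT3G25960 had 283 against 126.3 in ZFP3ox. Of all 39 members, 19 in ZFP3ox and 17 in WT were lower in each column set, and 8 in each genotype were higher. Column set 2 showed smaller differences. There the 39 members summed to 617 against 710 RPKM in ZFP3ox and 591 against 632 in WT, and the 4 genes to 341 against 388 in ZFP3ox and 184 against 256 in WT. The other 35 members summed in set 2 to 276 against 323 RPKM in ZFP3ox, a difference as large as that of the 4 genes, and to 407 against 376 in WT. The 4 genes were picked for these sums after their levels were seen.

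**Figure D4:**
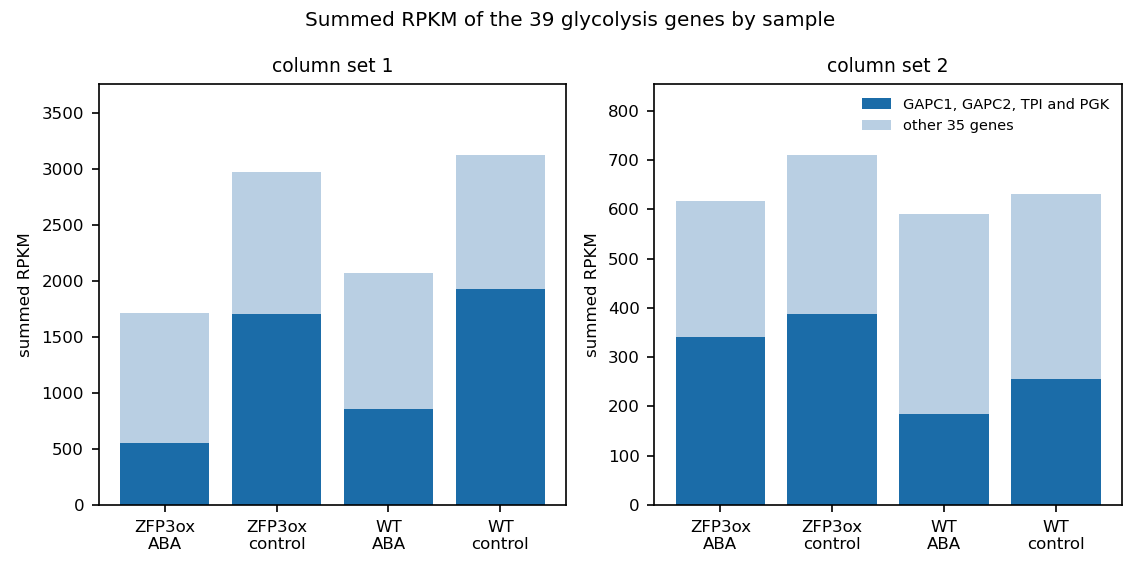
Summed RPKM of the 39 glycolysis genes in each sample, split into GAPC1, GAPC2, TPI and PGK (dark) and the other 35 genes (light), for column set 1 (left) and column set 2 (right, own scale). The dark part is 554 and 857 RPKM in the ABA samples of set 1 and 1704 and 1928 RPKM in the control samples.

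Abundant genes in general had low ABA ratios in ZFP3ox. Of the 918 genes with a mean of 50 RPKM or more, 24.1% were at least 2-fold lower with ABA in ZFP3ox, with a median of -0.54, and 13.6% in WT, with a median of -0.02. The 6 members at that level had medians of -0.67 in ZFP3ox and -0.53 in WT. Across the 39 members, the correlation of level with the ABA ratio was r = -0.57 in ZFP3ox and -0.21 in WT, as a description over genes that share libraries. Over all genes kept, that correlation was r = -0.32 in ZFP3ox and -0.17 in WT. Among the 25 members between 10 and 50 RPKM the median was -0.30 in ZFP3ox and -0.22 in WT, against 0.08 and 0.05 for the 10105 genes at that level.

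The mean ratios of ZFP3ox to WT were small for most glycolysis genes, but many of these means joined column sets of opposite sign. The sets had the same sign for 18 of 39 members with ABA and for 11 without it. Among abundant members with ABA, TPI was at -0.69 and 1.65 in sets 1 and 2, GAPC2 at -0.68 and 0.97 and PGK at -0.68 and 0.62. FBA5 was at 1.58 and -1.29 without ABA. With ABA, the median ratio of ZFP3ox to WT over the 39 members was 0.02 (set 1 -0.16, set 2 0.12), against 0.05 over all genes. By the 2-fold rule 1 member was higher, AT3G25960, and 2 were lower, PKP-BETA1 and GAPCP-1, where 2.7% of all genes were higher and 2.03% lower. AT3G25960, a cytosolic pyruvate kinase gene that shares windows with its near copies, had 283 RPKM in ZFP3ox with ABA against 32.9 in WT with ABA, and 126.3 in ZFP3ox control against 30.7 in WT control (set 1). The set 2 values of AT3G25960 were 2.82 against 3.13 RPKM with ABA and 2.0 against 2.34 without it. Its genotype ratio with ABA was 3.07 in set 1 and -0.11 in set 2. PKP-BETA1 was at -1.78 (-0.24 and -3.33) and GAPCP-1 at -1.27 (-0.29 and -2.25), both resting mainly on the set 2 value of WT with ABA. PFK5, at -1.0, lay just short of the rule. In each set, 0 members were 2-fold higher (0.631% of all genes) and 0 were 2-fold lower (0.503%). At any size, 8 members were higher in each set and 10 were lower, against 31.3% and 22.3% of all genes.

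Without ABA, the median ratio of ZFP3ox to WT was 0.12 (set 1 0.02, set 2 -0.08), against 0.01 over all genes. No member was 2-fold higher or lower, where 0.954% of all genes were higher and 1.58% lower. In each set, 0 members were 2-fold higher (0.137% of all genes) and 0 were 2-fold lower (0.181%), and at any size 4 were higher and 7 lower, against 21% and 20.5% of all genes. The lowest ratio was that of PFK7 at -0.85 (-0.21 and -1.50) and the highest that of AT3G25960 at 0.92 (2.0 and -0.15). The sets had the same sign for 18 of 39 members in the genotype ratios with ABA and for 11 without it, against 27 for the ABA ratios in ZFP3ox and 25 for those in WT. Over all genes kept, those shares were 53.6%, 41.5%, 62.3% and 53.0%, where the members' own were 46.2%, 28.2%, 69.2% and 64.1%. The correlation between sets over the 39 members was r = -0.03 for the genotype ratios with ABA, -0.32 without it, 0.39 for ABA in ZFP3ox and 0.20 for ABA in WT, a description over genes that share libraries. Over all genes kept, r was 0.17, 0.02, 0.27 and 0.28 in that order. The authors' deposited tables of genes higher or lower in ZFP3ox list no member.

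The ABA response of the members was set beside itself in the 2 genotypes as a difference, ZFP3ox minus WT. No member reached 4-fold, a size that 0.336% of all genes passed upward and 0.185% downward. The lowest differences were -1.60 for PKP-BETA1 and -1.49 for GAPCP-1, and the highest was 1.12 for AT3G55650. A difference of this kind has no residual degree of freedom and was not tested.

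Effects averaged over the other factor were tested with limma on all 22646 genes, against the departure from additivity in these 4 samples. For the averaged ABA effect 0 of 39 members passed an adjusted p of 0.05, while 0.287% of all genes rose and 0.362% fell. At an unadjusted p under 0.05, 11 members were lower and 2 higher, 28.2% and 5.13% of them, against 5.74% and 13.3% of all genes. GAPC1 came closest, with a log2 effect of -1.26 (SE 0.23) and a limma adjusted p of 0.0664. PFK2 followed at 1.10 (SE 0.24, limma adjusted p = 0.102), then AT5G58330 at -1.08 (0.105), AT3G55410 at -0.97 (0.122) and AT1G56190 at -0.83 (0.151). With median-of-ratios scaling GAPC1 (limma adjusted p = 0.00685), AT5G58330 (0.0154), AT3G55410 (0.0235) and AT1G56190 (0.0413) passed. All 4 fell, and under that scaling 806 of the 22646 genes passed (3.56%), 198 that rose and 608 that fell, against 147 (0.649%) without it. For the averaged genotype effect 0 of 39 members passed, while 0.00442% of all genes rose and as many fell. At an unadjusted p under 0.05, 1 member was higher and 2 were lower, against 4.27% and 3.02% of all genes, and the lowest limma adjusted p was 0.684, for AT3G25960.

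Genes around the pathway were described by the same size rule. By that rule 0.954% to 4.65% of all genes were higher and 1.58% to 2.86% lower, depending on the comparison. Of 17 classical glycolytic enzymes that lack the term (hexokinases, most aldolases and enolases, the pyrophosphate-dependent phosphofructokinase gene AT1G20950, an isomerase and mutases), 2 were at least 2-fold lower with ABA in ZFP3ox and none in WT. These were the enolase gene LOS2 at -1.26 (-1.79 and -0.72) and the aldolase gene FBA8 at -1.08 (-2.04 and -0.12), while in WT LOS2 was at -0.51 and FBA8 at -0.75. Of 6 fermentation genes, ADH1, the alcohol dehydrogenase that regenerates NAD, was higher with ABA by 1.83 (0.89 and 2.76) in ZFP3ox and 1.66 (1.81 and 1.52) in WT. ADH1 rose in the averaged ABA effect, by 1.75 log2 units (SE 0.23, limma adjusted p = 0.0319), and was higher in ZFP3ox than in WT without ABA by 1.05 (0.40 and 1.71). With ABA its genotype ratio was 1.22, but from sets of opposite sign (-0.51 and 2.95). PEP carboxylase draws phosphoenolpyruvate away from pyruvate kinase, and of its 3 measured genes PPC1 was lower with ABA in ZFP3ox by -1.16 (-0.91 and -1.41) and PPC3 was lower in ZFP3ox than in WT with ABA by -1.43 (-1.15 and -1.70). SUS6, 1 of 6 measured genes of sucrose cleavage, was higher with ABA in ZFP3ox by 1.05 (1.96 and 0.15). None of 3 gluconeogenesis genes and none of 8 genes of the mitochondrial pyruvate dehydrogenase complex reached 2-fold in any comparison. With the shares of all genes given above, lists this short cannot show that these pathways were unchanged. The gluconeogenesis gene PCK1 had sets of opposite sign, at -0.41 and 1.76 for ABA in WT and -0.62 and 1.38 for genotype without ABA. The 7 Calvin cycle loci set aside by the rule went further than the members, with 6 of 7 at least 2-fold lower with ABA in each genotype and medians of -1.30 in ZFP3ox and -1.71 in WT.

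Tissue markers moved along with the ABA comparison. The 4 green seedling markers, all measured, summed to 1480 RPKM in ZFP3ox with ABA against 3050 in ZFP3ox control, and 205 in WT with ABA against 1996 in WT control (set 1), and to 465 against 1466 and 111 against 1178 in set 2. The 5 seed reserve markers went the other way, at 673 against 107 RPKM in ZFP3ox and 2195 against 109 in WT (set 1), and at 379 against 20.8 and 347 against 24.8 in set 2. Most of the 379 RPKM was OLEO2, at 310 RPKM against 98.4 in WT with ABA. The other seed reserve markers had 7.86 to 39.7 RPKM in that column, against 25.5 to 131.3 in WT with ABA (set 2). The 2 endosperm markers summed to 26.6 against 16.4 RPKM in ZFP3ox and 53.1 against 12.7 in WT (set 1), and to 11.4 against 3.48 and 16.7 against 6.32 in set 2. Of these, MAN7 was higher with ABA in every ratio. EPR1, at a mean of 4.24 RPKM, was lower with ABA in set 2 of WT (2.03 against 3.27 RPKM) and higher in the other ratios. The 2 root markers summed to 27.2 against 45.2 RPKM in ZFP3ox and 15.4 against 69.7 in WT (set 1), and to 10.8 against 11.5 and 7.36 against 9.8 in set 2. None of these markers was at 0 in any column. Their part in the members' ratios was not tested, and in whole seedlings fewer cells of a type and less RNA per cell cannot be told apart.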

How the data were processed

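RNA of 4 whole-seedling samples was sequenced as 50-base reads after rRNA depletion, per the labels' protocols. The authors deposited 1 table of RPKM values with 8 value columns, 2 per sample, and 4 lists of chosen genes whose values are signed folds (a score). Per the authors' deposited settings, matching was in colour space and strand specific, with at most 2 mismatches and 10 matching places; the sources used here give neither program nor genome build. Positions in 269 feature names were compared with TAIR10.1: 262 spanned the coding region annotated there, so its coordinates and sequences (RefSeq) were used. The first base was equal for 68 of them and the last base for 65, so most annotated gene ends differed. In the table as a whole, 253 features had been given their locus by an overlapping gene of the same symbol, so overlap was partly built in.

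Values were log2(RPKM + 1). Genes with at least 1 RPKM in both columns of a sample were kept. Comparisons used 2-fold and 4-fold size rules. limma 3.58.1 (R 4.3.3) fitted genotype and treatment additively with 1 residual and 6.7 prior degrees of freedom, with Benjamini-Hochberg adjustment, and was tested on simulated data. Whole reads were not recovered: 56.6% to 62.2% of the low set 1 values lay within 0.1 of a whole read, against 20% by chance, and 19.9% to 21.7% in set 2. No label tells of separate cultures. The limma p-values rest on the departure from additivity in these 4 samples, moderated over all genes kept, and measure no spread between replicates. Named genes were members past 2-fold with the same sign in both sets, or the most abundant of their step. Members and lists were chosen with earlier results of these data known. Alternatives were the pseudocount, the filter, the scaling, each column set, the member rule, limma-trend and columns as libraries.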

Additional observations from a re-analysis of the deposited data

Results flagged for a closer look

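In 3 genes an effect had opposite directions in the 2 conditions compared, in both column sets of each. The share of all genes with such a pattern was not counted. Over all genes kept, the sets had the same sign for 41.5% to 62.3%, depending on the comparison. The difference was not tested, and with 1 sample per group no spread between replicates is known. AT1G12000, a pyrophosphate-dependent phosphofructokinase subunit, was higher in ZFP3ox than in WT with ABA (0.15 and 0.30 in sets 1 and 2) and lower without it (-0.28 and -0.75), a difference of 0.74 log2 units. PGIC was lower with ABA in ZFP3ox (-0.29 and -0.10) and higher with ABA in WT (0.52 and 0.18), a difference of -0.55. PFK6 was higher with ABA in ZFP3ox (0.16 and 0.49) and lower with ABA in WT (-0.14 and -0.05), a difference of 0.43.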

How the results depend on the processing

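No paired analysis was possible because each group is 1 sample and the labels give no replicate numbers. Of the alternatives to the medians and counts, 82 gave a value within the limits set for no change, 24 moved and 3 reversed; for single genes the numbers were 747, 8 and 1, and 4 passed the limma threshold that did not before. The ABA medians stayed below 0 under every alternative. The reversed values were medians of ZFP3ox against WT, -0.08 without ABA (set 2 alone), and -0.05 (median-of-ratios scaling) and -0.16 (set 1 alone) with ABA, and the ratio of AT3G25960 with ABA in set 2 alone, -0.11. The share of all genes stands in parentheses after each member count. Set 1 alone gave a median of 0.02 and 3 higher members without ABA (8.37%), 2 higher (8.28%) and 7 lower (5.49%) with ABA against control in ZFP3ox, and 5 lower in WT (4.86%). Set 2 alone gave 5 lower members without ABA (9.46%), 1 higher with ABA in ZFP3ox (8.0%), 4 higher (6.59%) and 6 lower (5.88%) in WT, and 3 past 4-fold in the difference of responses (3.46%). A pseudocount of 0.1 gave 1 lower member without ABA (3.01%), 2 higher with ABA in ZFP3ox (8.37%) and 1 in the difference of responses (1.14%), and a pseudocount of 5 gave 1 lower in ZFP3ox (1.34%) and 1 higher in WT (1.9%) with ABA. Median-of-ratios scaling gave a WT median of -0.38, 7 lower members in each genotype (4.04% in ZFP3ox, 4.11% in WT) and 4 passing limma (3.56%). With the 7 Calvin cycle loci kept, 8 members were lower with ABA in ZFP3ox (2.23%) and 9 in WT (2.86%), with a WT median of -0.41. In that setting 2 were higher in ZFP3ox than in WT with ABA (2.7%), and 3 passed limma (0.649%), all Calvin cycle loci. Apart from the added loci, the cause was not tested. A single sample per group, the unknown depth of set 2 and the higher floor of set 1 limit what the ratios show.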
